A study of Mus musculus with 9 samples.

Results

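Transforming growth factor beta (TGF-beta) was followed through 8 genes of its pathway across the cells of mouse livers in which YAP, a co-activator of transcription, had been switched on in an active form, and of control livers. The genes were chosen by name, 8 of the 27998 genes of the count table. They are the ligand Tgfb1, the matrix protein Thbs1, the receptors Tgfbr1 and Tgfbr2, the signal transducer Smad3, the inhibitors Smad7 and Skil, and the secreted protein Tgfbi. In GRCm38.p6 they lie on chromosomes 7 (Tgfb1), 2 (Thbs1), 4 (Tgfbr1), 9 (Tgfbr2 and Smad3), 18 (Smad7), 3 (Skil) and 13 (Tgfbi). Droplet-based 3′ single-cell RNA-seq gave 9 libraries of collagenase-treated whole livers of C57BL/6 mice. All mice carried ROSA26-rtTA-IRES-EGFP and received doxycycline food. The 2 WT libraries came from mice of that genotype labelled WT, fed doxycycline for 7 days, and the 4 YAP3d and 3 YAP7d libraries came from mice that also carried tetYAP, fed doxycycline for 3 and 7 days. By the methods of the study, the cross included Cre under the albumin promoter, and cells other than hepatocytes were isolated. The study describes the induction of YAP as taking place in hepatocytes, while the labels name no Cre. By the labels WT differs from YAP7d in the transgene alone, and from YAP3d also in the days of doxycycline. The labels do not say whether libraries of a group came from separate mice, and p-values measure the spread between these libraries.

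TGF-beta is secreted in a latent form that stays bound to its own propeptide and to the matrix until integrins or proteins such as thrombospondin release it. The free ligand brings together TGFBR2 and TGFBR1, and TGFBR1 then phosphorylates SMAD2 and SMAD3, which enter the nucleus with SMAD4. SMAD7 and SKIL are induced by the pathway and hold it back, at the receptor and on DNA. In the liver the pathway is known for driving fibrosis, for halting hepatocyte division and for restraining immune cells.

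Promoter sequences from RefSeq (GRCm38.p6) were at hand for 5 of the 8 genes, and those of Tgfb1, Tgfbr2, Tgfbr1 and Tgfbi are shown because the transcripts of these 4 genes differed between groups in at least 1 cell class. Each runs 250 bases up to the annotated start, 5′ to 3′. Capitals mark CAGAC, which holds the SMAD-binding bases, or its reverse complement.
Tgfb1, chr7:25686752-25687001, plus strand: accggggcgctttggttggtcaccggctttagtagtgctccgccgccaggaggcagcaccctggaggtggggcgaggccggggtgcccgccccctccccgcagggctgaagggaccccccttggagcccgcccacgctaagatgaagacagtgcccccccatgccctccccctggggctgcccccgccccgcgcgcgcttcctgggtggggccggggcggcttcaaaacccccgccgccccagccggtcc
Tgfbr2, chr9:116175364-116175613, minus strand: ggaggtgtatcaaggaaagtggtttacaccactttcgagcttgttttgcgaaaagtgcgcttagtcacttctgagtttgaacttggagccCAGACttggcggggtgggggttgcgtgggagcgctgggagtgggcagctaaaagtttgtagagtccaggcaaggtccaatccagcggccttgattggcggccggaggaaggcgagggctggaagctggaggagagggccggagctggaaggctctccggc
Tgfbr1, chr4:47352972-47353221, plus strand: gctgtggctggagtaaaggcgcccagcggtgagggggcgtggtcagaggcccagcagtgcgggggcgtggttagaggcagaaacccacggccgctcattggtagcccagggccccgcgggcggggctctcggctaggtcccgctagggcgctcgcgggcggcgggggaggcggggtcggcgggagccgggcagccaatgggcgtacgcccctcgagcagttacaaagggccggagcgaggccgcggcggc
Tgfbi, chr13:56609336-56609585, plus strand: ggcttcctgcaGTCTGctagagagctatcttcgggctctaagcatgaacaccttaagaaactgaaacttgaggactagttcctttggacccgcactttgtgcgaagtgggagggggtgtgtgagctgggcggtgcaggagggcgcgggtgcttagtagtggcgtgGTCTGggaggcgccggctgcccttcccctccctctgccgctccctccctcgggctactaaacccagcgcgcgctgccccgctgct
Of 32851 mouse promoters of this length, 42.2% held CAGAC on either strand. It was found 2 times before Tgfbi, 1 time before Tgfbr2 and 0 times before Tgfb1 and the Tgfbr1 start shown. A further Tgfbr1 window, chr4:47385966-47386215, which is not at the annotated start of the gene, held it 1 time. The TEAD site core GGAATG stood in 12.6% of all promoters and the AP-1 site TGANTCA in 6.75%, and these letters were in none of these 4 windows, on either strand. No match overlapped another motif. GC bases made up 75.2% of the Tgfb1 window, 58.4% of the Tgfbr2 window, 74.8% of the Tgfbr1 window and 62.4% of the Tgfbi window, against a median of 52.4% over all promoters.

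The 8562 cells had a median of 3190.5 to 11471.5 UMIs (unique molecular identifiers, 1 per captured transcript) per cell in a library, and 8527 remained after cells with fewer than 200 detected genes were left out. The 3 YAP7d libraries had the highest medians. The cells formed 25 clusters, 24 of which took a cell class from marker genes, while 22 cells stayed unnamed. Classes carry the ending -like because they rest on markers alone. The class of hepatocyte-like cells held 3 cells in WT, so the induction itself was not checked here. Of the cell barcodes, 46 occurred in more than 1 library. Transcripts of the predicted gene Gm10709 divided the libraries. In CPM, counts scaled to the same total over all genes in every library or class, both WT and YAP3d replicates 3 and 4 held at most 11.2, and YAP3d replicates 1 and 2 and every YAP7d library held at least 347 CPM (all cells). The labels name the second and the third version of the reagent kit for every library, while the methods of the study give the second for whole liver tissue. Libraries of both Gm10709 levels existed in YAP3d only, so this division and the 7-day effect against WT can be separated only through YAP3d.

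Tgfb1 was found in every non-parenchymal class, at levels that differed widely. Its level, in CPM within a class of 1 library, averaged 500.5 ± 82.3 CPM (SD, n = 6 libraries with at least 10 such cells) in monocyte-like cells. Endothelial-like cells followed with 422 ± 98.2 CPM (SD, n = 9) and plasmacytoid dendritic-like cells with 389 ± 86.3 CPM (SD, n = 4), and neither gap was larger than the SD. These averages pool the groups, and the 6 monocyte-like libraries were 1 of WT, 2 of YAP3d and 3 of YAP7d. Within YAP7d, endothelial-like cells averaged 501 CPM and monocyte-like cells 451 CPM. Dendritic-like and macrophage-like cells held 305 and 295 CPM. T-like cells had 165 ± 15.4 CPM and hepatocyte-like cells 18.3 ± 12.2 CPM (SD, n = 6), the lowest level of the 10 classes with 3 or more libraries. Cholangiocyte-like cells, outside the 10, held 31.5, 17.8 and 37.4 CPM in WT, YAP3d and YAP7d, from 4, 3 and 6 counts. Levels in this paragraph and the next are compared between classes for 1 gene at a time, because 3′ counts do not scale with transcript length, and no test was made between classes.

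Tgfbi, an extracellular matrix protein named for its induction by TGF-beta, was highest in the myeloid classes among the 10 with 3 or more libraries. It averaged 743 ± 221 CPM (SD, n = 6) in monocyte-like, 376 ± 175 CPM in neutrophil-like, 316 ± 161 CPM in macrophage-like and 207 ± 94.3 CPM in dendritic-like cells, over all groups. The neutrophil-like mean is of 4 libraries, and in the 1 YAP7d library among them the level was 278 CPM, against YAP7d means of 494 CPM in macrophage-like and 313 CPM in dendritic-like cells. Every dendritic-like library stood above every hepatocyte-like library. B-like, T-like and NK-like cells averaged 7.04, 6.97 and 8.07 CPM. Outside these 10 classes, mesenchymal-like cells held 192 CPM of Tgfbi in 8 WT cells of 1 library, from 13 counts, and 422 CPM in 14 YAP3d cells, from 48 counts. Thbs1, thrombospondin 1, which can free the latent ligand, reached 95.0 ± 35.5 CPM (SD, n = 6) in monocyte-like cells and 64.2 ± 66.4 CPM (SD, n = 4) in neutrophil-like cells, and at most 11.9 CPM on average in any other of the 10 classes. Cholangiocyte-like cells, outside the 10, held 15.7, 17.8 and 62.4 CPM of Thbs1 pooled over the libraries of WT, YAP3d and YAP7d, from 2, 3 and 10 counts. The mesenchymal-like cells of WT held 162 CPM of Thbs1, from 11 counts, and those of YAP3d 0 counts. The 22 unnamed cells, led by Prg4, Alox15, Saa3 and Pf4, held 250 of the 357 Thbs1 counts of the WT libraries, with 1279.7 CPM over their 15 WT cells.

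The receptors were spread in another way. Tgfbr2, which binds the ligand, was highest among the 10 classes in endothelial-like cells (89.2 ± 26.7 CPM, SD, n = 9) and B-like cells (83.2 ± 29.2 CPM, SD, n = 9), which differed by less than the SD over all groups. Mesenchymal-like cells, outside the 10, held 295 CPM in 8 WT cells of 1 library, from 20 counts, and 141 CPM in 14 YAP3d cells, from 16 counts. In WT alone endothelial-like cells had 122 and 113 CPM of Tgfbr2 in the 2 libraries and B-like cells 96.5 and 68.2 CPM, and in YAP3d they averaged 97.9 and 103.9 CPM (n = 4 each). Tgfbr1, the signalling kinase, was highest in plasmacytoid dendritic-like (85.6 ± 22.3 CPM, SD, n = 4) and macrophage-like cells (71.95 ± 15.2 CPM, SD, n = 9). Endothelial-like cells had 18.3 ± 3.69 CPM of Tgfbr1. Among the 10 classes Smad3 was highest in NK-like cells, at 35.4 ± 11.2 CPM (SD, n = 9), and the gap to T-like cells (16.5 ± 7.43 CPM) exceeded the SD. Smad7 was highest in B-like, T-like and endothelial-like cells (99.4, 87.9 and 78.8 CPM) over all groups, with no gap beyond the SD. In WT alone endothelial-like cells had 118 CPM of Smad7, T-like cells 93.7 CPM and B-like cells 78.0 CPM. Skil was highest among the 10 classes in dendritic-like and macrophage-like cells (112 and 109.8 CPM), also with no gap beyond the SD.

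**Figure D1:**
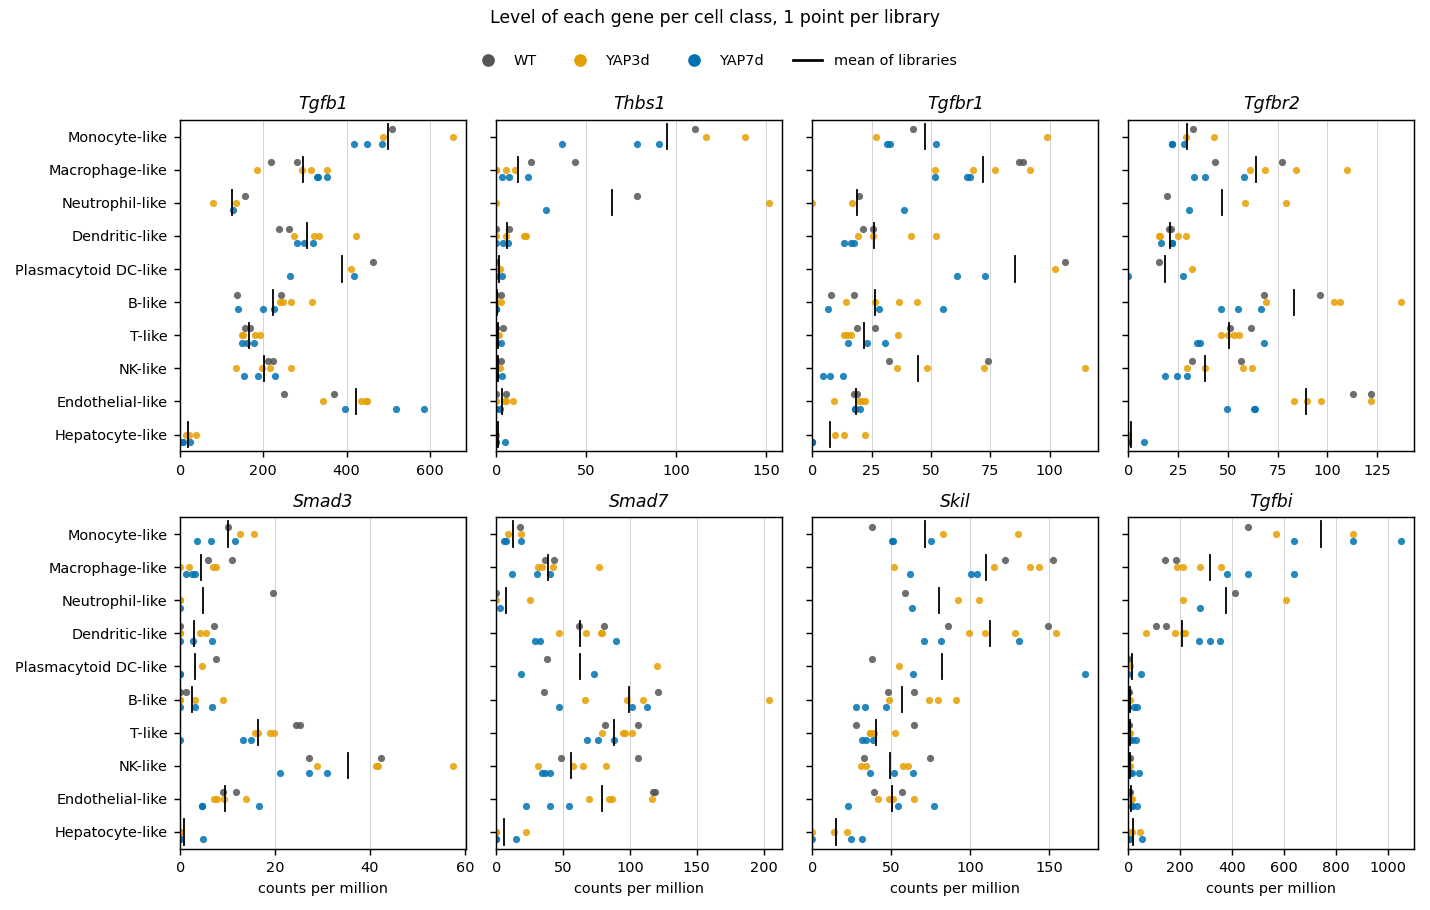
CPM (x axis) of each of the 8 genes in 10 cell classes (y axis), with 1 point per library in the colour of its group and a vertical bar at the mean of the libraries. The Tgfbi mean is 743 CPM in monocyte-like cells and 6.97 CPM in T-like cells, and the Tgfbr2 mean is 89.2 CPM in endothelial-like cells. Each panel has its own scale.

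Genes with a class profile most like that of a member were found by the Pearson correlation of log2(mean CPM + 1) over 11 classes, given as a description. For Tgfb1 these were Abi3 (r = 0.96), Mob1a and Tor1aip1 (both 0.94). For Tgfbi they were Clec4a2, Sirpb1c and Sirpb1a (0.98, 0.98 and 0.97), for Tgfbr1 Scimp and Tmem192 (both 0.89) and for Tgfbr2 Ptbp3, Fli1 and Mier1 (each 0.96). Smad3 was most like Scamp3, Igtp and Spry2 (0.90, 0.88 and 0.87), Smad7 like Yy1, Rsbn1 and Bod1l (0.95, 0.95 and 0.94), Skil like Nrros, Trim30a and Ehbp1l1 (each 0.94) and Thbs1 like Emilin2, Cd14 and Tlr13 (0.93, 0.93 and 0.92). The classes share libraries and depth. Nrros encodes a protein that anchors latent TGF-beta1 on myeloid cells.

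Which cells held the Tgfb1 transcripts differed between the groups. Endothelial-like cells carried on average 45.3% of a WT library's Tgfb1 counts (range 41.9% to 48.7%), 32.5% in YAP3d (7.97% to 45.7%) and 6.86% in YAP7d (5.31% to 9.80%). Macrophage-like cells carried 5.88% in WT (4.62% to 7.14%), 7.95% in YAP3d (at most 17.1%) and 50.4% in YAP7d (41.6% to 65.0%). The cells captured moved the same way. WT libraries held 31 and 67 macrophage-like and 276 and 502 endothelial-like cells, and YAP7d libraries held 148, 210 and 461 macrophage-like and 24, 23 and 64 endothelial-like cells. YAP3d replicate 2 stood apart, with 91 monocyte-like cells holding 590 of its 1180 Tgfb1 counts.

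Over all cells of a library, every YAP7d library held more Tgfbi than both WT libraries, and more Tgfb1 by a smaller margin. Neither was tested. Tgfbi had 32.3 and 59.98 CPM in WT, 47.3 to 356 CPM in YAP3d and 278 to 589.7 CPM in YAP7d. Tgfb1 had 226 and 279 CPM in WT, 246 to 389.9 CPM in YAP3d and 289.9 to 341 CPM in YAP7d. Smad7 had 75.1 and 100.2 CPM in WT, 52.2 to 88.9 CPM in YAP3d and 20.8 to 45.9 CPM in YAP7d. In such sums over all cells, fewer cells of a type and less RNA per cell cannot be told apart, so the comparisons that follow stay within a class. Macrophage-like and monocyte-like cells together held most Tgfbi in YAP7d (59.0% and 32.6% on average).

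**Figure D2:**
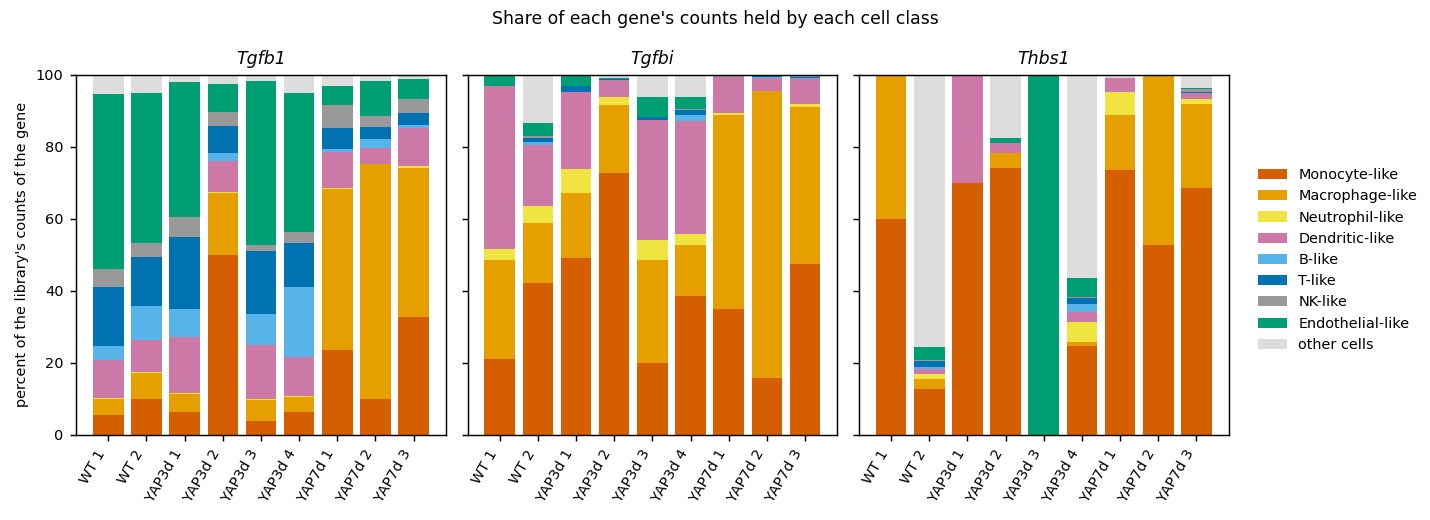
Percent of a library's counts of Tgfb1, Tgfbi and Thbs1 (y axis) held by each cell class (colours), 1 bar per library (x axis). The endothelial-like share of Tgfb1 averages 45.3% in WT and 6.86% in YAP7d, and the macrophage-like share 5.88% and 50.4%. Thbs1 had 357 counts in WT, 467 in YAP3d and 886 in YAP7d in all, so that bars of small libraries rest on few counts.

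For each class the counts of a library's cells were added up and the sums compared with edgeR's quasi-likelihood test in the 6 classes that had at least 10 cells in 2 or more libraries of every group. Adjusted p-values are Benjamini-Hochberg values over all genes tested in a class, and a gene is said to have risen or fallen where that value is under 0.05. Between YAP7d and WT, 4 of 32 pairs of a member and a class passed, 2 higher and 2 lower, and between YAP7d and YAP3d 3 of 32, all lower. Of all genes tested, 18.4% passed against WT in endothelial-like cells, 6.85% in NK-like cells and 1.15% in macrophage-like cells. In the other classes at most 0.0448% did. Against YAP3d the shares were 17.1% in endothelial-like cells, 14.3% in NK-like cells and at most 0.809% in the other classes. Between YAP3d and WT 0 of 32 passed by edgeR, 0 had an unadjusted p under 0.05 and 0 passed by DESeq2. In that contrast 0% of all genes passed by edgeR in each class, with 93 to 290 genes at an unadjusted p under 0.05 in 5 classes and 20 in B-like cells, and by DESeq2 1 gene passed, in dendritic-like cells.

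Endothelial cells line the sinusoids and meet the TGF-beta of the blood and of neighbouring cells. In the endothelial-like class the ligand rose after 7 days of induction, while the ligand-binding receptor and the inhibitor fell. These were 3 of 5 members tested, 1 higher and 2 lower, where 18.4% of the 7467 genes tested passed, 9.71% higher and 8.72% lower. Against YAP3d 2 of 5 members fell, where 17.1% of genes passed and 8.16% were lower. Without WT replicate 1, 344 genes rose and 316 fell against WT, of 7145 tested.

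Tgfb1 had 249 and 370.3 CPM in the 2 WT libraries, 448, 434, 344 and 448 CPM in YAP3d replicates 1 to 4, and 397, 586 and 519 CPM in YAP7d replicates 1 to 3. Every YAP7d library lay above both WT libraries, and YAP7d overlapped YAP3d. The rise over WT was 0.72 ± 0.21 on the log2 scale (SE, adjusted p = 0.0279, edgeR, n = 3 and 2). Against YAP3d adjusted p was 0.246. The rise did not pass without WT replicate 1 (0.50, adjusted p = 0.243), without YAP7d replicate 2 or 3 (adjusted p = 0.0631 and 0.0659) or with a term for libraries holding at least 10 CPM of Gm10709, which also sets WT replicate 2 and YAP3d replicate 4 apart (adjusted p = 0.0957).

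Tgfbr2 had 122 and 113 CPM in WT, 83.3, 96.9, 89.5 and 122 CPM in YAP3d, and 63.2, 49.6 and 63.5 CPM in YAP7d. Every YAP7d library lay below all WT and YAP3d libraries. It fell by 0.91 on the log2 scale against WT (SE 0.25, adjusted p = 0.0175) and by 0.69 against YAP3d (SE 0.23, adjusted p = 0.0464). The fall against WT did not pass without WT replicate 1, WT replicate 2 or YAP7d replicate 2 (adjusted p = 0.0982, 0.0586 and 0.0654), with cycling cells left out (0.0746) or by DESeq2 (0.0554). The fall against YAP3d passed in only 4 of 21 alternatives and in none of the 9 fits that left out a library (adjusted p from 0.0551 to 0.212).

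Smad7, which blocks the receptor, had the largest change of the 5 members tested here. It had 117 and 119 CPM in WT, 86.7, 69.2, 84.2 and 117 CPM in YAP3d, and 54.2, 22.5 and 40.1 CPM in YAP7d. Every YAP7d library lay below all WT and YAP3d libraries. YAP3d lay below WT by a narrow margin, with 116.6 CPM at most against 117.1 CPM at least. The difference between YAP3d and WT, -0.34 on the log2 scale, did not pass (SE 0.24, unadjusted p = 0.175, edgeR). Smad7 fell by 1.53 against WT (SE 0.29, adjusted p = 0.00188) and by 1.19 against YAP3d (SE 0.28, adjusted p = 0.00772). The YAP7d values rest on 12, 5 and 36 counts. Each fall passed in 20 of 21 alternatives, and in the exception, the Gm10709 term with a limit of 100 CPM, adjusted p was 0.216 against WT and 0.149 against YAP3d. Tgfbr1 had 9.23 to 22.1 CPM over the 9 libraries and Skil 22.3 to 76.8 CPM, with adjusted p of 0.862 and 0.906 against WT.

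The endothelial-like cells of the groups came from different clusters. Those of WT were in clusters led by Clec4g, with 151, 414 and 212 cells, and 93 of the YAP7d cells were in a cluster led by Cldn5, Egfl7 and Fabp4 that held 1 WT cell. In that cluster Tgfb1 had 512 CPM, Tgfbr2 57.0 CPM and Smad7 34.2 CPM, pooled over libraries. The Clec4g-led clusters of WT held 284, 321 and 378 CPM of Tgfb1, 73.0, 121 and 116 CPM of Tgfbr2, and 42.2, 122 and 131 CPM of Smad7.

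Other gene groups moved along with these 3 genes. The summed level of 14 endothelial markers was 17532 to 19314 CPM in WT, 16039 to 18041 CPM in YAP3d and 8721 to 9028 CPM in YAP7d, with 13 or 14 markers detected in every library. Proliferation genes summed to 176 to 227 CPM in WT and 929 to 1454 CPM in YAP7d, and 13 of 14 tested rose. Immediate early and heat shock genes, which respond to cell isolation, summed to 6769 to 8622 CPM in WT and 2096 to 2299 CPM in YAP7d, and 11 of 14 fell. Macrophage markers, 10 to 12 of 12 detected, summed to 227 to 446 CPM in WT and 384 to 828 CPM in YAP7d. Their part in the changes of Tgfb1, Tgfbr2 and Smad7 was not tested. With cycling cells left out, Smad7 passed (adjusted p = 0.00606 against WT and 0.0225 against YAP3d), as did Tgfb1 against WT (0.0177), and Tgfbr2 did not (0.0746 and 0.194).

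The libraries with much Gm10709 give the same comparison within 1 level of that transcript. Among libraries of at least 100 CPM, Smad7 averaged 78.0 CPM in 2 YAP3d libraries and 39.0 CPM in 3 YAP7d libraries, and Tgfbr2 averaged 90.1 and 58.8 CPM, with no overlap for either gene. Tgfb1 averaged 441 and 501 CPM in the same libraries and overlapped. Below 100 CPM, Smad7 averaged 118 CPM in WT and 100.4 CPM in YAP3d. With a term for this limit, chosen after the data were seen, 0 of 32 pairs passed in every contrast, while in endothelial-like cells 133 genes rose and 100 fell between YAP7d and WT. Smad7 was then lower by 1.10 on the log2 scale against WT (SE 0.43), Tgfbr2 by 0.59 (SE 0.37), and Tgfb1 higher by 0.62 (SE 0.32).

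**Figure D3:**
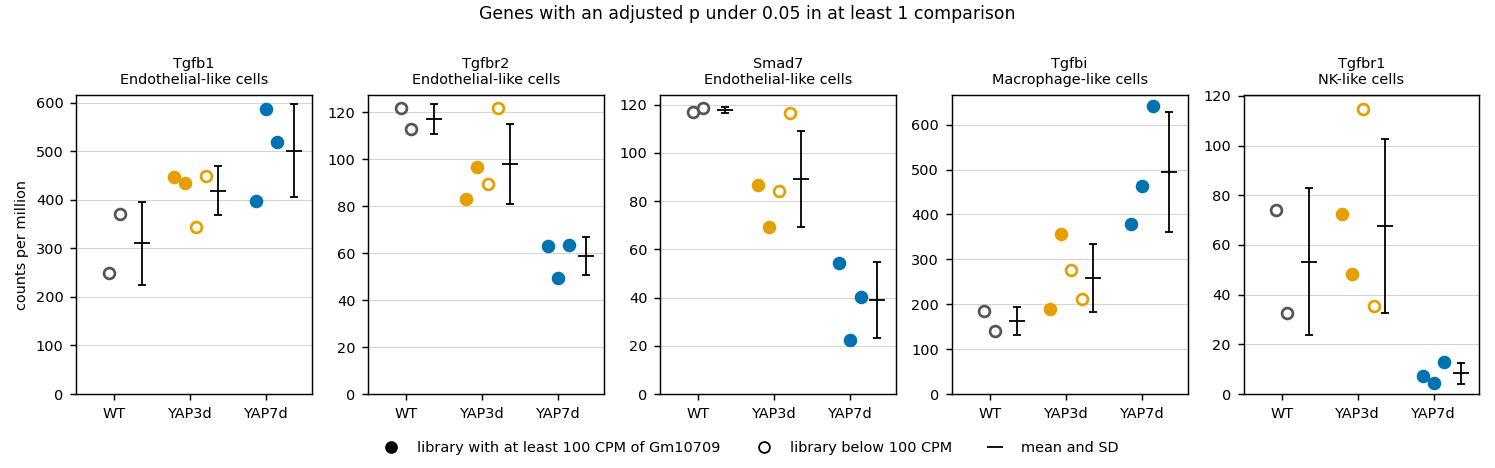
CPM (y axis) of the 5 pairs of a gene and a cell class that passed the test in at least 1 contrast, 1 point per library in the 3 groups (x axis), with the mean and SD. Filled points are libraries with at least 100 CPM of Gm10709 and open points those below. Smad7 in endothelial-like cells is at 117 and 119 CPM in WT and at 22.5 to 54.2 CPM in YAP7d, and Tgfbi in macrophage-like cells at 141 to 185 CPM in WT and 379 to 640.4 CPM in YAP7d.

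Macrophages are a known source of TGF-beta and of TGFBI. In macrophage-like cells Tgfbi rose after 7 days. It was the 1 of 7 members that passed against WT, where 1.15% of the 6706 genes tested passed and 0.283% were higher. Tgfbi had 185 and 141 CPM in WT, 189, 357, 276 and 212 CPM in YAP3d, and 379, 463 and 640.4 CPM in YAP7d. All 3 YAP7d libraries lay above all others. The rise over WT was 1.63 on the log2 scale (SE 0.37, adjusted p = 0.0381). Against YAP3d, 0 of 7 members passed by edgeR and by DESeq2, 2 had an unadjusted p under 0.05, and 0.313% of genes passed. Tgfbi differed there by 0.94 (SE 0.28, adjusted p = 0.174), and it passed without YAP3d replicate 2 (1.12, adjusted p = 0.0216) and with no filter on low counts (adjusted p = 0.0299). The shares of all genes rest on single libraries in this class. Without YAP3d replicate 2, 229 genes rose and 222 fell against WT and 206 rose and 219 fell against YAP3d, of 6508 tested. Against WT, 119 rose and 150 fell without YAP3d replicate 4, 0 rose and 14 fell without WT replicate 1, and 0 passed without WT replicate 2, with 702 at an unadjusted p under 0.05.

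The rise of Tgfbi over WT did not pass in 10 of 20 alternatives, and its size stayed between 1.33 and 1.81. Adjusted p was 0.147 and 0.527 without WT replicate 1 or 2, 0.0707 and 0.0602 without YAP3d replicate 1 or 3, and 0.0560 and 0.0999 without YAP7d replicate 2 or 3. It was 0.0691 with the stricter cell filter, 0.0625 without cycling cells and 0.0909 with the Gm10709 term at 10 CPM. With the limit of 100 CPM the difference was 1.39 (SE 0.51, adjusted p = 0.9999).

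Macrophage-like cells comprised 3 clusters that the groups filled unevenly. A cluster led by Clec4f and Vsig4, genes of resident Kupffer cells, held 59 WT, 70 YAP3d and 0 YAP7d cells. A cluster led by Cd5l, with Clec4f and Vsig4 also among its leading genes, held 26, 74 and 380. A cluster led by C1qa, Pf4 and Cd5l held 13, 30 and 439. Within the Cd5l-led cluster Tgfbi had 126 CPM in WT, from 8 counts, 129 CPM in YAP3d and 383 CPM in YAP7d. Within the C1qa-led cluster it had 374, 681 and 718 CPM. With the C1qa-led cluster left out, Tgfbi was higher by 1.70 in YAP7d than in WT (adjusted p = 0.0342) and by 1.496 than in YAP3d (adjusted p = 0.0231), an alternative added after the data were seen.

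Monocyte markers in the macrophage-like class moved with Tgfbi. Their summed level was 871 to 1491 CPM in WT, 672 to 1503 CPM in YAP3d and 1554 to 2756 CPM in YAP7d, with 4 to 10 of the 10 genes detected in a library. Monocyte-like cells themselves held 463 CPM of Tgfbi in the 1 WT library with at least 10 such cells, 867 and 569 CPM in 2 YAP3d libraries, and 638, 868 and 1050.5 CPM in YAP7d. The part of monocytes in the rise was not tested.

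The other members of the macrophage-like class did not pass. Tgfb1 had 218 and 282 CPM in WT, 293, 353, 184 and 315 CPM in YAP3d, and 328, 331 and 353 CPM in YAP7d (adjusted p = 0.579 against WT). Tgfbr1 had 87.1 and 88.8 CPM in WT and 65.1, 66.6 and 51.6 CPM in YAP7d (adjusted p = 0.368), without overlap. Tgfbr2 had 68.9, 61.2, 84.2 and 109.8 CPM in YAP3d and 33.2, 58.2 and 38.7 CPM in YAP7d, also without overlap, and the difference of -0.93 (SE 0.31) had an adjusted p of 0.238, or 0.0362 without YAP3d replicate 2. In WT it had 43.6 and 77.2 CPM.

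The inhibitors and Thbs1 did not pass either. Skil had 153 and 122 CPM in WT, 51.7, 143, 138 and 115 CPM in YAP3d, and 104, 100.4 and 61.8 CPM in YAP7d (adjusted p = 0.359 against WT). Smad7 had 43.6 and 36.7 CPM in WT and 40.3, 30.3 and 11.6 CPM in YAP7d (adjusted p = 0.630). Thbs1 had 43.6 and 19.3 CPM in WT, from 4 and 10 counts, and 7.09, 3.45 and 17.6 CPM in YAP7d (adjusted p = 0.429).

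Tgfbi in dendritic-like cells had 144 and 108 CPM in WT, 67.0, 211, 219 and 178.5 CPM in YAP3d, and 271, 314 and 352 CPM in YAP7d. The YAP7d libraries lay above all others, as in macrophage-like cells. The difference from WT was 1.31 (SE 0.38, unadjusted p = 0.00457, adjusted p = 0.245, edgeR) and that from YAP3d 0.91 (SE 0.30, adjusted p = 0.340). Each passed in 1 of 21 alternatives, the fit with no filter on low counts. Of 5 members tested in this class 0 passed against WT by edgeR and by DESeq2, and 1 had an unadjusted p under 0.05, where 0% of genes passed. Against YAP3d the counts were 0 by both tools and 1, where 0.102% of genes passed.

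Lymphocytes held little Tgfbi, and the part of free RNA in these low counts was not tested. In T-like cells Tgfbi was listed at 0 and 3.61 CPM in WT and at 3.30, 13.6 and 28.1 CPM in YAP7d. In NK-like cells YAP7d had 4.43, 13.6 and 40.2 CPM, and in endothelial-like cells 13.5, 13.5 and 32.3 CPM. The same 3 libraries held 278 to 589.7 CPM of Tgfbi over all cells.

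NK cells are restrained by TGF-beta, and in NK-like cells the kinase receptor fell. Tgfbr1 had 74.2 and 32.5 CPM in WT, 72.4, 48.1, 115 and 35.5 CPM in YAP3d, and 7.38, 4.54 and 12.9 CPM in YAP7d, the last from 5, 1 and 19 counts. Every YAP7d library lay below all others. It fell by 2.31 on the log2 scale against YAP3d (SE 0.55, adjusted p = 0.00998), the 1 of 5 members that passed, where 14.3% of genes passed and 5.89% were lower. The share was smaller without YAP3d replicate 1 (145 of 4822 genes fell and 250 rose), YAP3d replicate 4 (125 of 3900 fell and 220 rose) or YAP7d replicate 2 (139 of 4885 fell and 281 rose). The fall passed in 20 of 21 alternatives, and with the Gm10709 term at 100 CPM it was 2.33 (SE 0.68, adjusted p = 0.0701). Among libraries of at least 100 CPM of Gm10709, Tgfbr1 averaged 60.3 CPM in 2 YAP3d and 8.29 CPM in 3 YAP7d libraries.

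Against WT, 0 of 5 members passed in NK-like cells by edgeR and by DESeq2, 1 had an unadjusted p under 0.05, and 6.85% of genes passed. That share rests on both WT libraries: 18 genes rose and 47 fell of 5969 without WT replicate 1, and 31 rose and 21 fell of 4896 without WT replicate 2. Tgfbr1 differed by -2.06 (SE 0.65, adjusted p = 0.0643), and DESeq2 gave it no adjusted p. It passed with the replicate number as a block (adjusted p = 0.0153), without YAP7d replicate 3 (0.0413) and with finer clusters (0.0466). With cells of at least 4041 UMIs only, the lowest count of any cell of YAP7d replicate 3, it was -1.09 (adjusted p = 0.534).

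NK-like cells formed 2 clusters, 1 led by Gzma and Gzmb with 56 WT, 104 YAP3d and 33 YAP7d cells and 1 led by Gzma and Klra4 with 50, 90 and 224. Tgfbr1 had 47.1, 68.9 and 20.3 CPM in the first of these and 33.5, 23.4 and 9.18 CPM in the other, pooled over libraries in the same order. T-cell markers in the class summed to 1357 to 1410 CPM in WT, 915 to 1866 CPM in YAP3d and 40.9 to 304 CPM in YAP7d, with 5 to 10 of 10 detected. Immediate early and heat shock genes summed to 4207 to 5141 CPM in WT, 3029 to 4555 CPM in YAP3d and 1689 to 1857 CPM in YAP7d. Their part in the fall was not tested.

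Smad3 was tested in T-like cells alone. It had 24.3 and 25.3 CPM in WT, 15.8, 19.0, 16.4 and 19.7 CPM in YAP3d, and 14.8, 0 and 13.2 CPM in YAP7d. The WT libraries lay above all others, and adjusted p was 0.586 against WT. In NK-like cells, where it was highest, it ranged from 21.1 to 57.4 CPM on 3 to 31 counts per library and was under the count filter.

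T-like cells had 149 to 192 CPM of Tgfb1 over the 9 libraries, and 0 of 6 members passed in them in any contrast by edgeR or DESeq2, with 0 at an unadjusted p under 0.05. Of all genes 0% passed in T-like cells against WT and 0.809% against YAP3d, where 47 rose and 6 fell. The latter rests on single libraries, with 3 higher and 0 lower without YAP3d replicate 3 and 72 higher and 28 lower without YAP3d replicate 2. In B-like cells 0 of 4 members passed by either tool, with 0 at an unadjusted p under 0.05, where 0.0448% and 0% of genes passed. Monocyte-like cells were not tested in any contrast, since 1 WT library alone had at least 10 such cells and the 6 classes were those with 2 in every group. There Tgfb1 had 508 CPM in WT, 655 and 488 CPM in YAP3d, and 449.9, 485 and 417 CPM in YAP7d. Thbs1 had 110.2 CPM in WT, 117 and 138 CPM in YAP3d, and 90.2, 36.5 and 78.2 CPM in YAP7d.

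**Figure D4:**
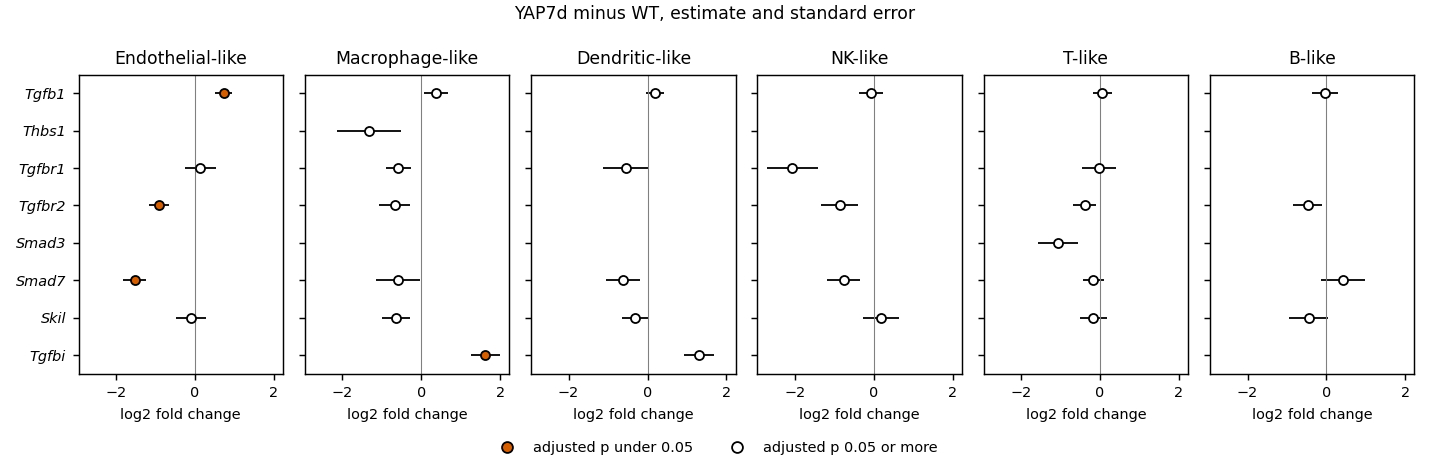
Log2 fold change of YAP7d over WT (x axis, ± SE) of each member tested (y axis) in 6 cell classes, with filled points where adjusted p was under 0.05 by edgeR. The 4 filled points are Tgfb1 (0.72), Tgfbr2 (-0.91) and Smad7 (-1.53) in endothelial-like cells and Tgfbi (1.63) in macrophage-like cells.

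Whether a change differed between endothelial-like and macrophage-like cells was tested on the difference itself. Of 5 members, and of 5832 genes (0%), 0 passed with limma for YAP7d against WT, and the lowest unadjusted p of a member was 0.152 (Skil). Without WT replicate 2, 230 of 6110 genes and 0 of 5 members passed this test. In simulated data limma recovered 0% of differences of 2 on the log2 scale and 63.5% of differences of 4. With edgeR over both classes, added after the data were seen, 26 of 5832 genes and 0 of 5 members passed, and 71.5% of simulated differences of 2 were recovered. The difference for Smad7 was -0.66 (SE 0.53, adjusted p = 0.783) and for Tgfb1 0.28 (SE 0.29, adjusted p = 0.840).

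The rest of the pathway was read from lists of 54 genes that include the members. In endothelial-like cells 34 were tested against WT, of which 1 rose and 5 fell, where 18.4% of all genes passed (9.71% higher and 8.72% lower), with a median log2 change of -0.10 beside -0.04 over all genes. Ltbp4, which binds latent TGF-beta to the matrix, went from 471 ± 82.5 CPM (SD, n = 2) in WT to 81.7 ± 20.6 CPM (SD, n = 3) in YAP7d, a fall by 2.50 (SE 0.28, adjusted p = 2.98e-05, edgeR). Eng, an endothelial co-receptor, fell by 0.67 (adjusted p = 0.0229) and Junb, a target gene that is also an immediate early gene, by 1.42 (adjusted p = 0.00416). Of 6 receptors and co-receptors tested, 0 rose and 2 fell, Tgfbr2 and Eng.

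Against YAP3d 1 of the 34 rose and 7 fell in endothelial-like cells, where 17.1% of all genes passed and 8.16% were lower. Besides Tgfbr2 and Smad7, those that fell were Ltbp4 (-2.39), Junb (-1.01), Smurf2 (-1.03), whose product degrades receptors and SMADs, Tgfbr3 (-0.93), a co-receptor that presents the ligand, and Eng (-0.54). Cdkn1a, a cell cycle inhibitor, rose by 0.80 (adjusted p = 0.0467). The 2 contrasts share the YAP7d libraries.

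In macrophage-like cells, where 1.15% of all genes passed, 30 of the 54 genes were tested against WT. Tgfbi rose and Ltbp4 fell, the latter from 29.5 ± 19.9 CPM to 0.770 ± 0.496 CPM on 41 counts in all libraries. Endothelial markers in the class summed to 850 to 994 CPM in WT and 222 to 258 CPM in YAP7d, and their part in the fall of Ltbp4 was not tested. The median change of the 30 was -0.47 beside 0.02 over all genes. In NK-like cells, where 6.85% of all genes passed and far fewer without either WT library, 16 were tested, 0 rose and 2 fell, Junb (-1.36, adjusted p = 0.00133) and Rhob (-1.56, adjusted p = 0.0226), with a median of -0.49 beside -0.02. Against YAP3d 4 of the 16 fell and 0 rose in NK-like cells, where 14.3% of all genes passed and 5.89% were lower. Besides Tgfbr1 these were the target genes Junb (-1.09, adjusted p = 0.00141), Rhob (-1.22, adjusted p = 0.0265) and Nedd9 (-1.06, adjusted p = 0.0307). Junb is also an immediate early gene. Of 12 listed immediate early and heat shock genes tested in NK-like cells, 6 fell against WT and 3 against YAP3d. Their part in the falls of the target genes was not tested. In macrophage-like cells 1 of the 30 fell and 0 rose against YAP3d, where 0.313% of all genes passed, and this was Ltbp4 (-4.28, adjusted p = 0.0416).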

How the data were processed

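Single-cell RNA-seq was performed on 9 mouse liver libraries. Per the methods and the labels, the authors aligned reads to mm10 and counted UMIs with Cell Ranger, and Seurat 2 is named. The deposited values are raw counts per gene and cell, not normalized. The annotation used is not given in the sources used here. Total counts per library ranged from 1314878 to 25056881, over 293 to 2554 cells, and intervals from counts cover counting error only.

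From these counts, cells with at least 200 genes were clustered with scanpy 1.11.5 and leidenalg 0.10.2 (2500 variable genes less the TGF-beta lists and cell cycle genes, 30 components, 15 neighbours, resolution 1). Clusters were named from 174 markers, of which 168 were in the table, where at least 3 markers were raised. Doublets (64 called, 0.751%) were kept, and left out as an alternative. Counts were summed per library and class, with at least 10 cells per library. They were tested with edgeR 4.0.16 (quasi-likelihood, TMM, filterByExpr, all 9 libraries in 1 fit) in R 4.3.3, and adjusted by Benjamini-Hochberg within class and contrast at 0.05. Alternatives were DESeq2 1.42.0, RLE size factors, no count filter, a stricter cell filter (500 genes, 10% mitochondrial counts), resolution 2, cycling cells (1441) left out, each library left out, the replicate number as a block, and a Gm10709 term at 10 CPM. Terms at 100 CPM, cells of at least 4041 UMIs, Clec4f-led clusters and edgeR over 2 classes were added after seeing the data. The class difference was tested with limma 3.58.1.

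On simulated counts for YAP7d against WT, the edgeR test recovered 85% of 200 genes changed by 2 on the log2 scale in endothelial-like cells (7467 genes) and 66% in macrophage-like cells (6706 genes). No 2 libraries of 1 group agreed within sampling noise (chi-square per degree of freedom 4.26 to 53.9). The members, gene lists and tests were chosen with earlier results of these data known. Named genes are the 8 members in every class and contrast, pathway genes with an adjusted p under 0.05, and the 3 genes most like each member, of which 1 is not reported here. Promoters are from RefSeq (GRCm38.p6).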

Additional observations from a re-analysis of the deposited data

Results flagged for a closer look

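Among 48 groups of 4 YAP3d libraries, each for 1 gene in 1 class, 6 had a library far from the other 3 by Dixon's test. Chance gives about 1 in 20 where values are not tied, and this rate does not hold for 4 of the 6, in which the other 3 libraries are all at 0 and the ratio is at its maximum by construction. Tgfb1 in endothelial-like cells was 343.8 CPM in YAP3d replicate 3 and 433.8 to 448.2 CPM in the others. Tgfbr1 in T-like cells was 36.2 CPM in YAP3d replicate 2, from 21 counts, and 13.2 to 16.4 CPM in the others. The remaining 4 are YAP3d replicate 4, the deepest YAP3d library, where the other 3 libraries held 0 counts. They are Tgfbi in B-like cells (5.341 CPM, 14 counts), Thbs1 in B-like cells (2.67 CPM, 7 counts), Thbs1 in NK-like cells (2.09 CPM, 1 count) and Thbs1 in T-like cells (1.793 CPM, 5 counts).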

How the results depend on the processing

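Between YAP7d and WT, 4 pairs of a member and a class passed, 7 with no filter on low counts, 2 with the Gm10709 term at 10 CPM, 0 at 100 CPM, 2 without cycling cells, and 1 to 4 when each library was left out in turn. The count was 1 without WT replicate 1 or YAP7d replicate 2, and 2 without WT replicate 2. Between YAP7d and YAP3d, 3 passed, 7 with no filter, 0 with the term at 100 CPM, and 2 to 4 when each library was left out. DESeq2 gave 3 and 2. The number of all genes that passed also moved when a library was left out or the term at 100 CPM was added, as given above. These counts therefore do not describe the members alone. Between YAP3d and WT, and for the class difference, 0 passed under every alternative run. With the replicate number as a block the counts were 5 and 2, and Tgfbr1 in NK-like cells passed against WT. The numbers did not pair the libraries (correlations of -0.389 to 0.308, and 0 to 2 of 3 YAP7d libraries correlating best with their own number in a class). Of the 12 log2 changes with an unadjusted p under 0.05, 197 refits kept their side of the threshold, 41 lost it, 9 gained it and 0 changed direction. In the 84 other pairs the sign changed in 118 of 1695 refits. With cells of at least 4041 UMIs macrophage-like and B-like cells could not be tested. Counts of 1 to 36 per library limit Smad7 and Tgfbr1 in YAP7d, and 2 WT libraries limit every comparison with WT.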

Other observations

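The 22 cells left unnamed, led by Prg4, Alox15, Saa3, Pf4 and Serpinb2, stood apart in Thbs1. In the 15 WT cells Thbs1 had 1279.7 CPM (250 counts, all in WT replicate 2), Tgfbi 230.3 CPM (45 counts), Smad3 40.9 CPM (8 counts) and Smad7 5.12 CPM (1 count). These cells held 197 of the 467 Thbs1 counts of YAP3d. They came in numbers too small to test, 15 in WT, 6 in YAP3d and 1 in YAP7d.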
